A study of Homo sapiens with 4 samples.

Results

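The genes described here encode the enzymes, transporters, inhibitors and main transcription factor of tissue mineralization, and 10 were listed: ALPL, PHOSPHO1, ENPP1, ANKH, NT5E, SLC20A1, SLC20A2, MGP, SPP1 and RUNX2. All 10 were measured, each by 1 probe set that names exactly 1 gene, out of 17687 genes in all. The list was chosen by measured values, the higher ALPL signal with 8Br-cAMP and the higher MGP signal after knockdown, so these differences are described and not tested.

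RNA came from KGN cells, an established human granulosa cell line, and was measured on Clariom S Human arrays. The group siNC received control siRNA at 10 nM, and the group siYT received siRNAs against YAP and TAZ at 5 nM each, so that every group was transfected and YAP and TAZ were targeted together. After 48 h each received fresh medium for 24 h, either plain or with 8Br-cAMP at 0.5 mM, a form of cyclic AMP that crosses the cell membrane, which gave the groups siNC+8Br-cAMP and siYT+8Br-cAMP. Each of the 4 groups was 1 array, so no difference could be set against a spread between replicates, and the number of arrays limits the precision.

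Mineral forms where phosphate is plentiful and pyrophosphate, which blocks crystal growth, is scarce. Tissue-nonspecific alkaline phosphatase, the product of ALPL, removes pyrophosphate outside the cell, while ENPP1 makes it from nucleotides and ANKH helps to release what supplies it. Matrix Gla protein and osteopontin hold back crystal growth, and in the skeleton RUNX2 drives the genes of bone-forming cells. In granulosa cells, cyclic AMP carries the signal of the gonadotropins, and YAP and TAZ are the coactivators that the Hippo kinases restrain.

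Levels are deposited log2 signals, and a difference is 1 array minus another. A gene is called when its difference was 2-fold or more (1 on the log2 scale) and the higher array reached 6.22, the median of all gene values, termed the level filter. Values ran up to 19.36, above what the log2 of a 16-bit scanner reading can give, so they may have been rescaled after RMA, and a fold computed from them may not equal a fold of signal. The targeted genes were lower in siYT: without 8Br-cAMP YAP1 differed by -2.69 and WWTR1, which encodes TAZ, by -2.13, and with it by -3.17 and -3.79. Their siYT levels did not reach the 95th percentile of negative controls, 7.29 without and 6.98 with 8Br-cAMP, so these sizes depend on the background. Of 15 granulosa markers 14 were measured, and 9 passed the level filter on 1 or more arrays. FST, INHBA, GATA4, CDH2 and WT1 passed it on all 4, and CYP19A1 went from 5.04 in siNC to 17.56 in siYT+8Br-cAMP. FOXL2, AMHR2, INHA, NR5A2 and HSD17B1 lay under the filter on all arrays, FOXL2 between 4.13 and 5.14.

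**Figure D1:**
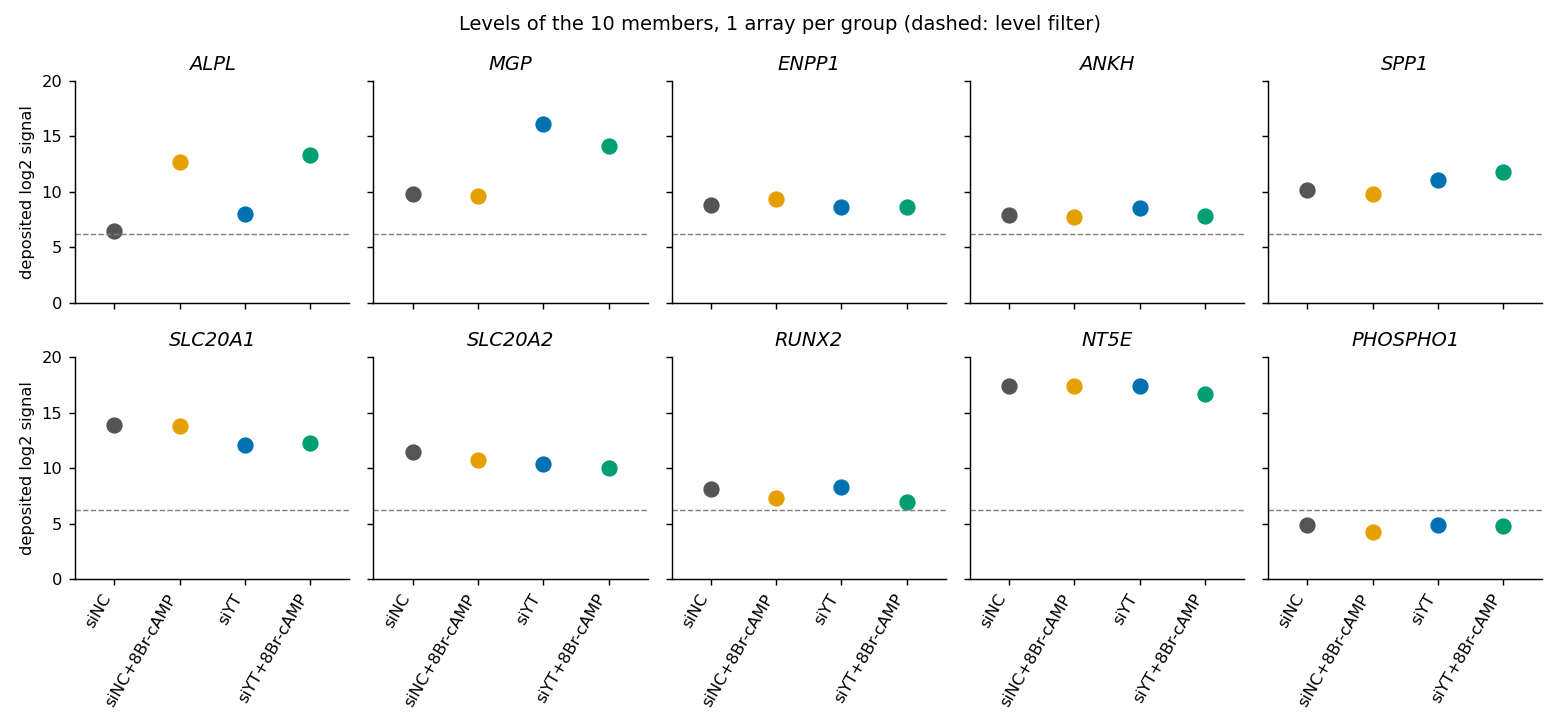
Deposited log2 signal (vertical axis, 0 to 20) of each of the 10 genes on the 4 arrays, 1 point per array and group; the dashed line is the level filter of 6.22. ALPL is high in both 8Br-cAMP groups and MGP in both siYT groups, while PHOSPHO1 stays under the line on all 4 arrays.

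ALPL, the phosphatase, followed 8Br-cAMP. Without 8Br-cAMP its level was 6.49 in siNC and 7.99 in siYT, and with it 12.69 and 13.31. The difference with 8Br-cAMP was 6.20, or 73.3-fold, after siNC and 5.32, or 39.9-fold, after siYT. It ranked 2 from the highest among the 17687 genes after siNC and 10 after siYT. The siNC level exceeded 93.5% of the negative control probe sets of its array, so it lay close to background and the fold that starts from it depends on the background. The siYT level exceeded 97.4% of them.

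ALPL was also higher after YAP/TAZ siRNA without 8Br-cAMP, by 2.83-fold, and by 1.54-fold with 8Br-cAMP, which is under 2-fold. With both treatments it was 6.82 above siNC, or 113-fold, where the 2 separate differences from siNC add up to 7.70. The difference of differences subtracts the 8Br-cAMP effect seen in the siNC pair from that in the siYT pair. For ALPL it was -0.88 and was not called.

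Windows of 8 of the 10 genes, 11 windows in all, were taken from the RefSeq promoter table (GRCh38.p14). None was searched for MGP and SLC20A2, so the counts of matches leave these genes out. The 250 bases before each start were searched on both strands for TGACG, the core of the cyclic AMP response element, for GGAATG, a core bound by TEAD factors, for TGTGGT, a core bound by RUNX factors, and for TATAAA, the TATA box. Windows for 3 genes are shown because these genes were called and differ in which treatment they followed: ALPL with 8Br-cAMP, SPP1 and SLC20A1 with YAP/TAZ siRNA. Of the 3 windows of ALPL, the one that held a match is printed, and the array does not tell which start was in use. Capitals mark the matches, on whichever strand they lie.
ALPL, chr1:21509173-21509422, plus strand: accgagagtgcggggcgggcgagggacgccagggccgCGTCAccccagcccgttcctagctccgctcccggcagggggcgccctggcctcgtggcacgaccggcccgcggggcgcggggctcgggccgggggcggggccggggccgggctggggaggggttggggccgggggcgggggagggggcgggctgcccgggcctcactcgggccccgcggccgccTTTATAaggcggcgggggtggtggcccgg
SPP1, chr4:87975464-87975713, plus strand: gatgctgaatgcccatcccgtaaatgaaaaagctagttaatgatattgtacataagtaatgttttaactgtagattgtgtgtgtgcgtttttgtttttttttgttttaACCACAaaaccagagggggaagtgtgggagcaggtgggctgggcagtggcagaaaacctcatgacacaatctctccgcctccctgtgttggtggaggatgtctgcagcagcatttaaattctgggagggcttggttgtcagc
SLC20A1, chr2:112645689-112645938, plus strand: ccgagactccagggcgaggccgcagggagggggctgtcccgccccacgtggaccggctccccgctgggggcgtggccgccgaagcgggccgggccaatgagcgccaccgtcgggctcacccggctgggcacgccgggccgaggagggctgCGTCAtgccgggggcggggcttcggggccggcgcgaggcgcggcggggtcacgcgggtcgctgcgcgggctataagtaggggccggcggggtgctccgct

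Counted back from the start, the printed ALPL window held TGACG, read on the opposite strand, at -213 and TATAAA, also on that strand, at -29. SLC20A1 held TGACG on the opposite strand at -100, NT5E on the printed strand at -127 and PHOSPHO1 at -32, so 4 of the 11 windows held this core, and it occurred in 21.2% of all 34943 windows of the same length. Of the 4 genes with it, ALPL was listed for its 8Br-cAMP difference, and PHOSPHO1 lay under the level filter and could not be called. The matches are therefore not set against the calls. TGTGGT occurred at -142 in SPP1 and 2 times in the first window of RUNX2, and in 11.0% of all windows. GGAATG occurred in the second window of RUNX2 and in 11.9% of all windows, and TATAAA in 10.8%. A match is a run of letters and was not tested as a binding site.

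PHOSPHO1, the phosphatase that frees phosphate from phosphocholine inside matrix vesicles, was not measurably above background. Its level was 4.90 in siNC, 4.26 in siNC+8Br-cAMP, 4.84 in siYT and 4.81 in siYT+8Br-cAMP, all under the level filter, and its differences are not read further. It is the only member that did not pass the filter, and the other 9 passed it on all 4 arrays.

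The genes that supply pyrophosphate stayed within 2-fold in every comparison. ENPP1, which cuts nucleotides to release it, was at 8.78 in siNC, 9.35 in siNC+8Br-cAMP, 8.68 in siYT and 8.61 in siYT+8Br-cAMP, a range of 0.74. ANKH, the membrane transporter, was at 7.91, 7.76, 8.52 and 7.83 in the same order, a range of 0.76. Without replicates, a difference under 2-fold does not show that these levels were alike. The siYT+8Br-cAMP array differed from siNC by -0.16 for ENPP1 and by -0.07 for ANKH.

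NT5E encodes CD73, which turns extracellular AMP into adenosine and phosphate. It was at 17.37 in siNC, 17.37 in siNC+8Br-cAMP, 17.41 in siYT and 16.69 in siYT+8Br-cAMP, so the array with both treatments was the lowest and the other 3 lay close together. These levels exceed the 99th percentile of genes, 15.15 to 15.29 by array, and no test of saturation was made. The difference of differences was -0.72.

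The sodium-phosphate cotransporters, which bring phosphate into cells, were lower after YAP/TAZ siRNA. SLC20A1, also called PiT-1, was at 13.89 in siNC, 13.82 in siNC+8Br-cAMP, 12.06 in siYT and 12.31 in siYT+8Br-cAMP. It was 3.55-fold lower after the siRNA without 8Br-cAMP and 2.83-fold lower with it, and both differences passed the call rule. SLC20A2, also called PiT-2, was at 11.48, 10.70, 10.34 and 10.04 in the same order. Its siRNA difference was -1.14 without 8Br-cAMP, which was called, and -0.66 with it, which was not. The 8Br-cAMP differences of SLC20A1 were -0.07 after siNC and 0.26 after siYT, and those of SLC20A2 were -0.78 and -0.30.

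MGP, the vitamin K-dependent inhibitor of calcification, was high in both siYT groups. Its level was 9.83 in siNC, 9.67 in siNC+8Br-cAMP, 16.12 in siYT and 14.11 in siYT+8Br-cAMP. The siRNA difference was 6.29, or 78.1-fold, without 8Br-cAMP and 4.44, or 21.8-fold, with it, at rank 4 and rank 5 from the highest of all genes. The siNC levels exceeded 98.7% and 99.0% of the negative controls of their arrays.

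For MGP the 8Br-cAMP difference depended on the siRNA in these arrays, at -0.16 after siNC and -2.00, or 4.01-fold lower, after siYT. The difference of differences was -1.84 and was called, at rank 216 from the lowest. SPP1 was the other gene called here, in the opposite direction.

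SPP1, which encodes the secreted phosphoprotein osteopontin, was at 10.15 in siNC, 9.84 in siNC+8Br-cAMP, 11.11 in siYT and 11.82 in siYT+8Br-cAMP. The siRNA difference was 0.96 without 8Br-cAMP, just outside the call rule, and 1.98, or 3.93-fold, with it. The 8Br-cAMP difference was -0.31 after siNC and 0.71 after siYT. The difference of differences was 1.02, just inside the rule.

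RUNX2, the transcription factor of bone-forming cells, was at 8.16 in siNC, 7.29 in siNC+8Br-cAMP, 8.34 in siYT and 6.95 in siYT+8Br-cAMP. The 8Br-cAMP difference was -0.87 after siNC, which was not called, and -1.40 after siYT, which was. The siRNA differences were 0.18 and -0.35. The lowest value exceeded 94.9% of the negative controls of its array and lay close to background.

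**Figure D2:**
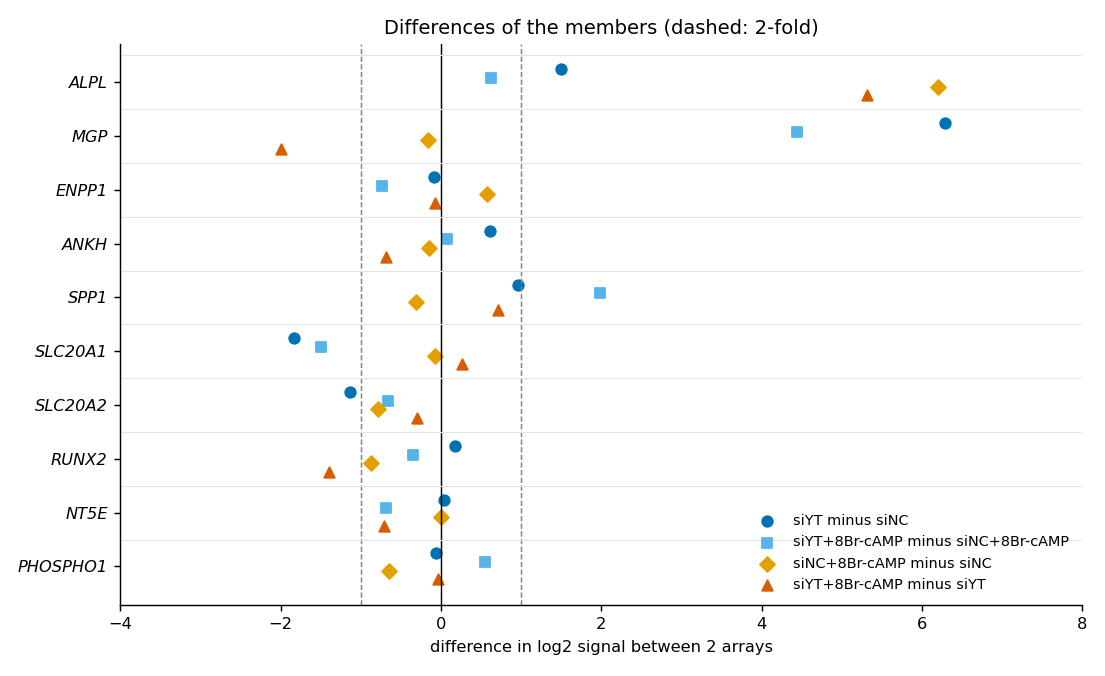
Difference in log2 signal (horizontal axis) between 2 arrays for each gene and each of the 4 comparisons, 1 point each; the dashed lines mark 2-fold. ALPL stands at 6.20 and 5.32 for 8Br-cAMP, MGP at 6.29 and 4.44 for YAP/TAZ siRNA and at -2.00 for 8Br-cAMP after siYT, and ENPP1, ANKH, NT5E and PHOSPHO1 stay between the dashed lines.

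Counted over the list, 4 of 10 genes were called for YAP/TAZ siRNA without 8Br-cAMP, ALPL and MGP higher and SLC20A1 and SLC20A2 lower, where 7.60% of all genes were called higher and 7.32% lower. With 8Br-cAMP, 3 were called, MGP and SPP1 higher and SLC20A1 lower, against 5.52% higher and 5.94% lower of all genes. For 8Br-cAMP, ALPL was the 1 gene called after siNC, against 4.32% higher and 3.74% lower, and 3 were called after siYT, ALPL higher and MGP and RUNX2 lower, against 4.06% higher and 4.15% lower. The rule that chose the list used these contrasts, so nothing is read from the shares. The median difference of the 10 was 0.11 and -0.14 for the siRNA without and with 8Br-cAMP and -0.15 and -0.19 for 8Br-cAMP after siNC and siYT, and the medians of all genes were 0.02, 0.06, -0.03 and -0.02. Between siYT+8Br-cAMP and siNC 6 were called, ALPL, MGP and SPP1 higher and SLC20A1, SLC20A2 and RUNX2 lower, against 9.84% higher and 9.12% lower. These comparisons share arrays. The difference of differences was called for 2, SPP1 higher and MGP lower, against 3.57% higher and 4.82% lower.

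**Figure D3:**
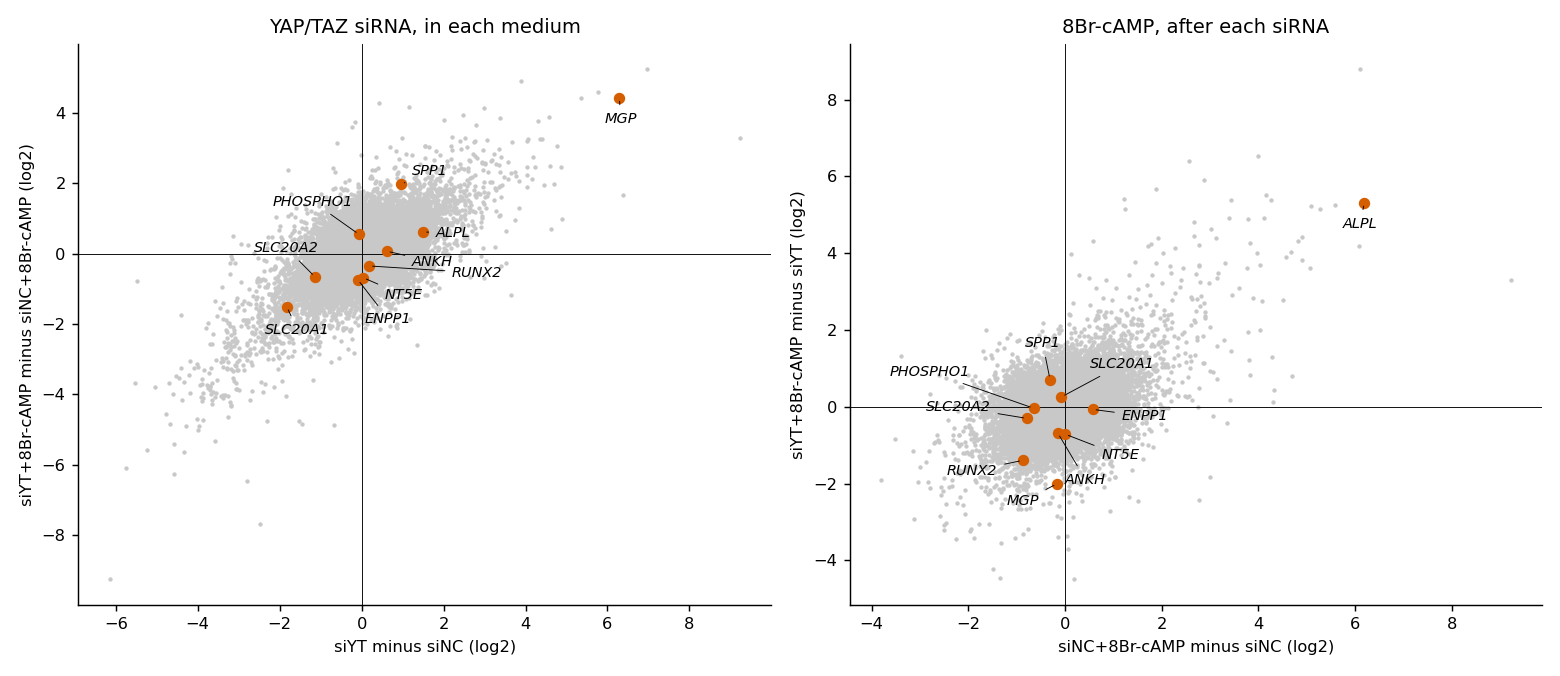
Left, the siRNA difference in log2 signal without 8Br-cAMP (horizontal axis) and with it (vertical axis); right, the 8Br-cAMP difference after siNC (horizontal) and after siYT (vertical). Grey points are all 17687 genes and orange points the 10 described here, with MGP at the upper right edge of the left panel, ALPL at that of the right panel, and the other 8 nearer the origin in both.

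The genes whose profile was nearest to ALPL were found among 9741 genes past the level filter, by the Euclidean distance between log2 values after each gene was centred on its mean over the 4 arrays. They were HPD, an enzyme of tyrosine breakdown (distance 0.85), the nuclear receptor NR4A3 (0.88), RASD1, a Ras-like GTPase (0.92), HSD3B2, which makes progesterone (1.24), and STAR, which carries cholesterol into mitochondria (1.45), where the median distance was 5.90. STAR was at 9.84 in siNC, 14.01 in siNC+8Br-cAMP, 10.38 in siYT and 15.90 in siYT+8Br-cAMP. RASD1 had the closest 8Br-cAMP difference after siNC, 6.09, and HPD went from 3.93 to 9.03 there. Apart from STAR, all of them lay under the level filter in siNC and siYT, and passed it only in the 8Br-cAMP groups. The difference of differences was called for RASD1 (-1.91) and STAR (1.35), and not for HPD, NR4A3, HSD3B2 or ALPL.

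The genes nearest to MGP were LUM, the collagen-binding proteoglycan lumican (1.22), HMCN1, a basement membrane protein (1.40), GPNMB, a membrane glycoprotein (1.95), GBP2, a GTPase of the interferon response (2.02), and DCN, the proteoglycan decorin (2.09), against a median of 5.58. GPNMB was at 11.78 in siNC, 11.86 in siNC+8Br-cAMP, 15.83 in siYT and 15.08 in siYT+8Br-cAMP. LUM (4.89 and 5.28) and DCN (5.84 and 4.56) lay under the level filter in siNC and siNC+8Br-cAMP, and passed it only in the siYT groups. With 8Br-cAMP after siYT the 5 differed by -0.32 for HMCN1 to -0.80 for DCN and none was called, where MGP differed by -2.00. Likeness over 4 arrays is a description of these arrays, and the choice of the genes used all of them.

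**Figure D4:**
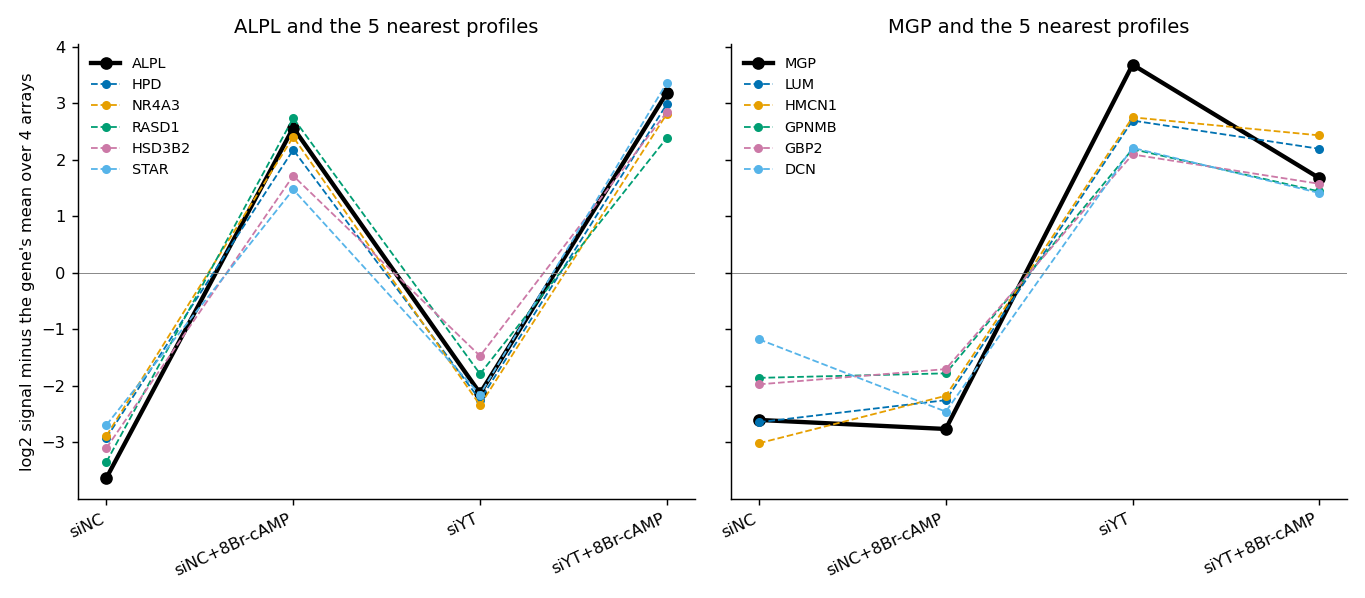
Log2 signal minus each gene's own mean over the 4 arrays (vertical axis) for ALPL and MGP (black) and the 5 genes nearest to each (colours), with 1 array per group on the horizontal axis; the lines only join the points of a gene. The ALPL profiles alternate with 8Br-cAMP, and the MGP profiles step up from the siNC to the siYT groups.

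Other genes of pyrophosphate and phosphate handling were largely unmeasurable, since 10 of 14 measured lay under the level filter on all arrays. These included the other alkaline phosphatases ALPI, ALPP and ALPG, which ranged from 2.39 to 5.17 over the arrays. For the siRNA, ENPP2, which makes lysophosphatidic acid, was called higher in both media (1.13 and 1.25), and PPA1, a cytosolic pyrophosphatase, was called lower with 8Br-cAMP (-1.05) and stood at -0.81 without it. That is 1 higher and 0 lower of 14 without 8Br-cAMP, against 7.60% higher and 7.32% lower of all genes, and 1 higher and 1 lower with it, against 5.52% higher and 5.94% lower. The list medians were 0.05 and 0.18, and those of all genes 0.02 and 0.06. No gene of the list was called by size for 8Br-cAMP, and the 10 under the filter could not be called. Of all genes, 4.32% were called higher and 3.74% lower after siNC, and 4.06% and 4.15% after siYT.

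Among 13 genes of extracellular ATP and adenosine, 6 lay under the level filter on all arrays and could not be called. For the siRNA 2 were called higher and 0 lower in each medium. Of all genes, 7.60% were called higher and 7.32% lower without 8Br-cAMP, and 5.52% higher and 5.94% lower with it. The list medians were 0.19 and 0.02, and those of all genes 0.02 and 0.06. DPP4, a peptidase that holds adenosine deaminase at the cell surface, was at 11.60 in siNC, 11.28 in siNC+8Br-cAMP, 14.61 in siYT and 13.86 in siYT+8Br-cAMP. ADORA1, an adenosine receptor, was higher without 8Br-cAMP (2.09) and PANX1, an ATP release channel, with it (1.03). For 8Br-cAMP, SLC29A1, a nucleoside transporter, was lower after both siRNAs (-1.77 and -1.33), and ADORA1 was higher after siNC (1.19) and at -0.65 after siYT. That is 1 higher and 1 lower after siNC, against 4.32% higher and 3.74% lower of all genes. After siYT it is 0 higher and 1 lower, against 4.06% and 4.15%. The list medians were -0.13 and -0.08, and those of all genes -0.03 and -0.02.

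MGP needs vitamin K for its carboxylation, and 11 genes of that pathway, of other Gla proteins and of their processing were measured. Of these, 3 lay under the level filter on all arrays and could not be called. Without 8Br-cAMP 4 were called higher and 1 lower for the siRNA (median 0.37), against 7.60% higher and 7.32% lower of all genes (median 0.02). With it 3 were called higher and 1 lower (median 0.43), against 5.52% higher and 5.94% lower (median 0.06). VKORC1, which recycles vitamin K, was higher by 1.19 and 1.56, the Gla protein PROS1 by 2.24 and 1.79, and the growth factor GAS6, also a Gla protein, by 1.31 and 1.21. GGCX, the carboxylase itself, differed by 0.37 and 0.43 and was not called. NQO1, a quinone reductase, was lower (-2.40 and -2.78). FURIN, a protease that matures secreted proteins, was called higher without 8Br-cAMP (2.01) and stood at 0.95 with it. It was the 1 gene called for 8Br-cAMP after siNC (1.26), against 4.32% higher and 3.74% lower of all genes. After siYT 0 were called, against 4.06% and 4.15%.

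Of 12 bone matrix genes, 7 lay under the level filter on all arrays, among them IBSP, DMP1, DSPP and MEPE, which belong to the osteopontin family. For the siRNA 3 were called higher and 0 lower without 8Br-cAMP (median 0.16), against 7.60% higher and 7.32% lower of all genes (median 0.02). With it 1 was called higher and 0 lower (median 0.14), a share near that of all genes, 5.52% higher and 5.94% lower (median 0.06). BMP1, a procollagen protease, was higher in both media (1.37 and 1.21), while SPARC, a collagen-binding protein, and COL1A2, a collagen I chain, were called without 8Br-cAMP (1.14 and 1.34) and stood at 0.89 and 0.80 with it. COL1A1, the other chain, was lower with 8Br-cAMP after siYT (-1.47) and at -0.37 after siNC. That is 0 called for 8Br-cAMP after siNC, against 4.32% higher and 3.74% lower of all genes. After siYT it is 0 higher and 1 lower, against 4.06% and 4.15%.

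Of 9 osteopontin receptor genes, 2 lay under the level filter on all arrays and could not be called. For the siRNA without 8Br-cAMP 3 integrin chains were called higher and 0 lower (median 0.43), against 7.60% higher and 7.32% lower of all genes (median 0.02). With it 1 was called higher and 0 lower (median 0.31), against 5.52% higher and 5.94% lower (median 0.06). ITGB5 was higher by 1.41 and 1.05, ITGAV by 1.49 without and 0.09 with 8Br-cAMP, and ITGB1 by 1.01 and 0.85. CD44, another receptor, differed by 0.06 and 0.31. None of the 9 was called for 8Br-cAMP by size. Of all genes, 4.32% were called higher and 3.74% lower after siNC, and 4.06% and 4.15% after siYT. The list medians were -0.10 and -0.29, and those of all genes -0.03 and -0.02.

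Among 15 partners of RUNX2 and factors of bone-forming cells, 6 lay under the level filter on all arrays and could not be called. For the siRNA without 8Br-cAMP 2 were called higher and 0 lower (median -0.04), against 7.60% higher and 7.32% lower of all genes (median 0.02). With it 2 were called higher and 2 lower (median 0.08), against 5.52% higher and 5.94% lower (median 0.06). RUNX1, a relative of RUNX2, was higher by 1.18 and 1.02. The other call without 8Br-cAMP was the homeobox factor MSX2, which did not reach the 95th percentile of negative controls on both arrays, so that 1 call remains with a filter at that percentile. With 8Br-cAMP after siYT, the homeobox factor DLX5 was higher (1.38), against 0.10 after siNC, and ATF4, a stress response factor, lower (-2.07), against -0.96. For 8Br-cAMP 1 gene was called higher and 1 lower after siNC, against 4.32% higher and 3.74% lower of all genes. After siYT 2 were called higher and 1 lower, against 4.06% and 4.15%. The homeobox factor DLX6 was called higher with 8Br-cAMP after both siRNAs, but it lay under that percentile on all 4 arrays. Without DLX6 the list has 1 call after siNC and 2 after siYT. CBFB, the DNA-binding partner of RUNX2, was lower with 8Br-cAMP after siNC (-1.12) and at -0.62 after siYT. SP7, the factor that follows RUNX2 in bone formation, lay under the level filter on all arrays, the lowest being 2.10 in siYT+8Br-cAMP.

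Of 14 calcification regulators, 9 lay under the level filter on all arrays and could not be called. For the siRNA without 8Br-cAMP 1 was called higher and 2 lower, against 7.60% higher and 7.32% lower of all genes. With 8Br-cAMP 0 were called higher and 4 lower, against 5.52% higher and 5.94% lower. The list medians were -0.15 and -0.02, and those of all genes 0.02 and 0.06. STC2, a secreted stanniocalcin, was lower in both media (-2.85 and -2.92), as was DKK1, an inhibitor of Wnt signalling (-1.16 and -2.79). TNFRSF11B, which encodes osteoprotegerin, was lower with 8Br-cAMP (-2.10) and at -0.46 without it. STC1, the other stanniocalcin, was higher with 8Br-cAMP after both siRNAs (2.68 and 1.34). It was also the 1 gene called higher for the siRNA without 8Br-cAMP (1.10), and stood at -0.25 with it. DKK1 was lower with 8Br-cAMP after siYT (-1.25) and at 0.38 after siNC. That is 1 higher and 0 lower for 8Br-cAMP after siNC, against 4.32% higher and 3.74% lower of all genes. After siYT it is 1 higher and 1 lower, against 4.06% and 4.15%.

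**Figure D5:**
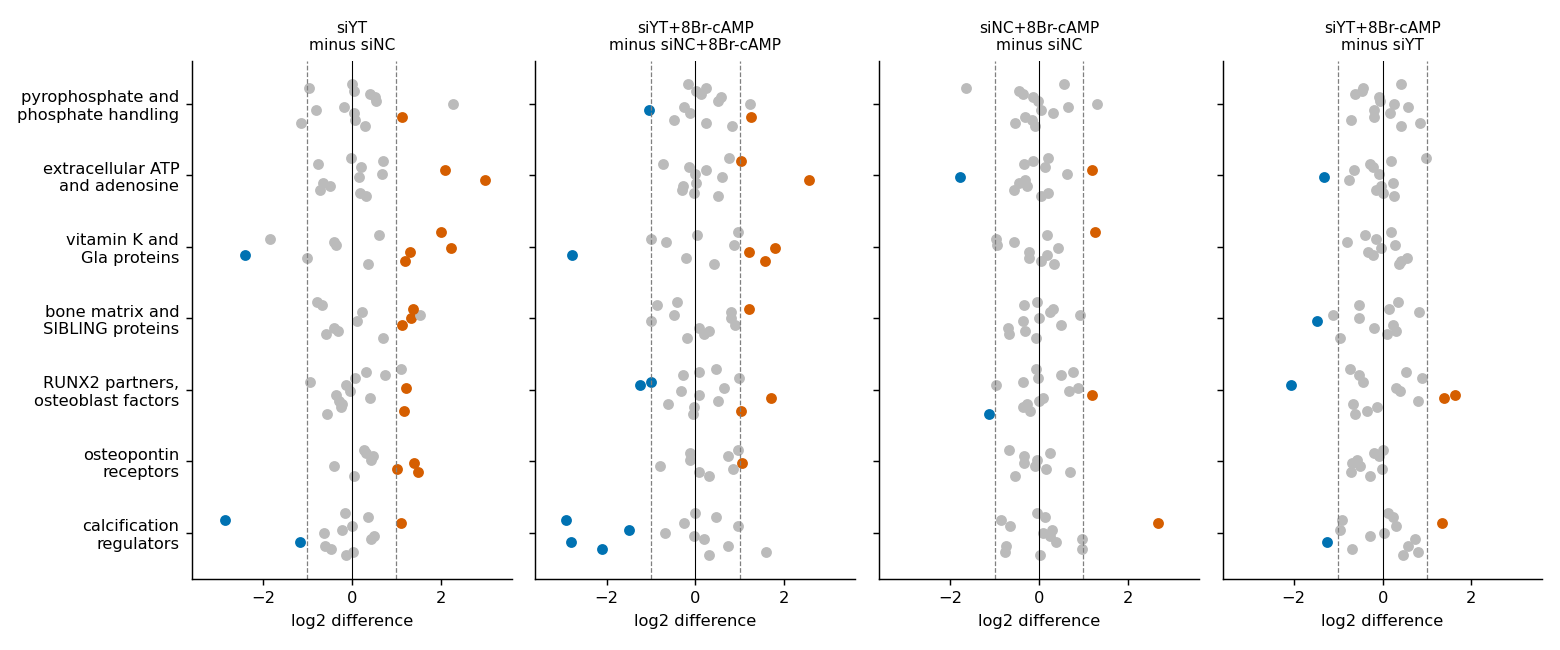
Log2 difference (horizontal axis) of each measured gene of the 7 lists in the 4 comparisons, 1 point per gene; orange points were called higher, blue lower and grey not called, and dashed lines mark 2-fold. STC2 is the lowest point for the siRNA without 8Br-cAMP (-2.85), and DPP4 the highest (3.01).

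Of 6 measured markers of bone-forming cells, SP7, IBSP, PTH1R and MEPE lay under the level filter on all arrays, and DLX5 and COL1A1 above it, and the mean log2 level of the 6 was 5.90 in siNC, 5.70 in siNC+8Br-cAMP, 5.89 in siYT and 5.58 in siYT+8Br-cAMP. Of 8 measured markers of theca and stromal fibroblasts, LUM, DCN, COL1A2 and PDGFRA were called higher for the siRNA without 8Br-cAMP and 0 lower, against 7.60% higher and 7.32% lower of all genes. With 8Br-cAMP LUM and DCN were called higher and 0 lower, against 5.52% higher and 5.94% lower, and PDGFRA and COL1A1 stood at 0.06 and -0.99. LUM and DCN are also among the profiles nearest to MGP. Both lay under the level filter on both siNC arrays, so the sizes of their siRNA differences depend on the background. The mean log2 level of the 8 was 7.17 in siNC, 6.95 in siNC+8Br-cAMP, 8.79 in siYT and 8.03 in siYT+8Br-cAMP. CYP17A1, INSL3 and LHCGR, also in this list, lay under the filter on all arrays. Other marker sets are read against the same shares of all genes. For the siRNA without 8Br-cAMP, 1 of 6 smooth muscle and pericyte markers was called higher (PDGFRB) and 1 lower (CNN1). With 8Br-cAMP CNN1 alone was called, again lower. Of 5 leukocyte markers CD68 was called higher in both media. Of 6 chondrocyte markers SOX9 was called lower with 8Br-cAMP, and of 6 endothelial markers none. The cells were an established granulosa line, and the part of other cell types in the MGP difference was not tested. In RNA from whole cultures, fewer cells of a type and less RNA per cell cannot be told apart.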

How the data were processed

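Signals were deposited on a log2 scale after the authors ran RMA in Expression Console (Affymetrix), per the submitters' processing notes. RMA removes background, equalises the distributions of the arrays and condenses each probe set into 1 value. Software versions and the probes' genome build are not given in the sources used here. Of 24351 probe sets, 17709 named exactly 1 gene in the platform annotation and gave 17687 genes, with probe sets of a gene averaged. The other 6642, which were controls or did not name exactly 1 gene, were left out, apart from 612 negative controls. Array medians lay between 6.20 and 6.27.

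Calls are by size, with no p-value, because each group is 1 array; the call function was tested on simulated data. Members, lists and alternatives were chosen with earlier results of these data known. Named genes are the members, YAP1 and WWTR1, the 5 nearest profiles to ALPL and to MGP, and up to 4 called genes of each list. CBFB, CD44, GAS6, GGCX, RUNX1, SP7, the cell type markers and genes named as under the level filter were added after their values were seen. Alternatives were other level filters, fold thresholds and scalings (limma 3.58.1 in R 4.3.3 for quantile and cyclic loess) and log2 of the linear value plus 32. Tables and figures were made with Python 3.11.15, pandas 2.3.3 and matplotlib 3.10.9.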

Additional observations from a re-analysis of the deposited data

Results flagged for a closer look

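SPP1 was the 1 member with a called difference of differences whose 8Br-cAMP differences had opposite signs after the siRNAs: -0.31 after siNC and 0.71 after siYT. Each rests on 2 arrays, and the difference between them was not tested.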

How the results depend on the processing

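Which members were called, and in which direction, was the same without a level filter, with the filter at the 95th percentile of the negative controls (6.95), with each array centred on its median and after cyclic loess. Quantile normalization and log2 of the linear value plus 32 lost 1 call each, the difference of differences of SPP1 (0.98 and 0.998), and left 1 member called there. The fold threshold mattered most. At 1.5-fold, 6 members were called for the siRNA without 8Br-cAMP and 7 with it, where 26.5% and 23.3% of all genes were called. For 8Br-cAMP 3 were called after siNC and 6 after siYT, against 19.9% and 19.3%. The difference of differences was called for 5, against 21.1%. At 4-fold, 1 member was called for the siRNA in each medium, against 3.68% without 8Br-cAMP and 2.52% with it. Between siYT+8Br-cAMP and siNC 2 were called, against 6.21%, and 0 for the difference of differences, against 1.02%. At that threshold ALPL remained called for 8Br-cAMP after both siRNAs, and MGP for the siRNA in both media and for 8Br-cAMP after siYT. For 8Br-cAMP that is 1 member after siNC, against 1.21% of all genes, and 2 after siYT, against 1.44%. No called difference of a member changed its sign under centring, quantile normalization, cyclic loess or log2 of the linear value plus 32. The other filters and fold thresholds leave every difference as it was, so signs could not change there. Adding 32 to the linear value keeps the order of any 2 arrays, so it could not change the sign between 2 arrays. Centring on the median moved the median of all genes to 0.106 for the siRNA with 8Br-cAMP and to 0.103 for the difference of differences. No paired analysis was possible because each group has 1 array and the labels carry no replicate numbers. ALPL in siNC, RUNX2 in siYT+8Br-cAMP and all PHOSPHO1 values lay near background, which limits the size of their differences.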
